A study of Mus musculus with 12 samples.

Results

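The 4 microRNA (miRNA) array probes described here, UCSF034_000782, UCSF034_002172, UCSF034_002175 and UCSF034_001735, showed the highest signal in reprogrammed mouse epithelial cells relative to adult mammary cells. They were picked from 947 tested probes, out of 2579 on the array, as the 2 probes with the highest difference in each of the comparisons of a reprogrammed group with adult mammary cells. UCSF034_000782 and UCSF034_002172 came from reprogrammed mammary minus adult mammary, and UCSF034_002175 and UCSF034_001735 from reprogrammed lung minus adult mammary. Values in these comparisons chose the probes, so they are given without a test.

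A miRNA is a short RNA that is cut from a hairpin precursor and loaded into an Argonaute protein, where a stretch near its 5′ end, the seed, pairs with target mRNAs and lowers their translation or stability. Epithelial tissues carry characteristic sets of miRNAs, and these sets shift when cells change identity. The array reads each miRNA through complementary DNA probes, and the brightness of a spot rises with the amount of labelled RNA bound. The probes have names in the form of the maker's serial numbers, which no table used here links to a miRNA or a sequence. Therefore the 4 probes are described by number, no function is given for them, and the labelled cell types were not checked against known miRNAs.

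The arrays held 4 groups of 3 samples labelled as epithelial cells: lung and mammary gland of adult animals, and a reprogrammed group of each name. Strain and genotype are not given in the sources used here. Adult donor cells came from 10-week-old female mice and were freed by enzymes and enriched by repeated low-speed spins. The protocol names no sort, so other cell types may be present, and in such bulk RNA fewer cells of a type and less RNA per cell cannot be told apart. The protocol shared by all samples also describes epithelium from E13.5 embryonic lung and cells embedded in Matrigel for transplantation, and the series title speaks of reprogramming that depends on stroma. The labels do not say whether "reprogrammed lung" names where the cells came from or what they became. Nor do they tie replicates to separate animals. All p-values therefore measure no more than the spread among the samples at hand, and that spread may be technical.

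Each value below is a log2 signal after background subtraction, scaling between arrays and averaging over the 6 or 7 spots of a probe. Values under a floor of 3.41 were set to it. Brightness before scaling, the 75th percentile of signal over probes detected on all arrays, averaged 842 in reprogrammed mammary cells, against 1525 in reprogrammed lung, 1427 in adult mammary and 2516 in adult lung cells. Reprogrammed mammary replicate 4 stood apart in spot quality. Its 754 tested probes with 6 or more spots had a median SD between spots of 0.20 on the log2 scale, against 0.06 to 0.13 on the other arrays, and 345 of its spots were marked as outliers, against 164 to 264 elsewhere. Reprogrammed lung replicate 3 was deposited without the settings of its scan and with rounded signal. Both arrays lay on slide 1, and results are given with and without them. Arrays whose identifiers carry the same slide number were taken as lying on one slide. Slide 1 held 5 arrays, from all groups. Slide 2 held 1 array of each group, and slide 3 held 1 array of each group except adult lung.

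UCSF034_000782 ranked first and UCSF034_002172 second of the 947 probes for reprogrammed mammary over adult mammary cells. Their differences were 3.27 ± 0.73 and 3.03 ± 0.63 on the log2 scale (standard error, SE, of the limma fit), or 9.67-fold and 8.15-fold. The next probes in that order were UCSF034_002481, at 2.40 ± 0.58 (SE), and UCSF034_002507, at 2.27 ± 0.44 (SE). UCSF034_001735 stood seventh there, with 2.07 ± 0.42 (SE), and UCSF034_002175 stood 68th, with 0.96 ± 0.45 (SE). For 3 of the 4 probes every reprogrammed mammary array lay above every adult mammary array, a separation seen in 17.7% of all tested probes. Over all tested probes the limma fit called 6.76% higher and 8.98% in either direction here. Since this comparison chose 2 of the members, nothing is read from these shares. UCSF034_002175 was the probe whose groups overlapped.

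For reprogrammed lung over adult mammary the order began with UCSF034_002175, at 2.40 ± 0.45 (SE) or 5.27-fold, and UCSF034_001735, at 2.24 ± 0.42 (SE) or 4.73-fold. Here the edge of the choice was narrow. UCSF034_002172 had rank 3 with 2.01 ± 0.63 (SE) and UCSF034_000782 had rank 9 with 1.96 ± 0.73 (SE). The first probes outside the choice, UCSF034_002336 and UCSF034_002060, were higher by 2.00 ± 0.43 and 2.00 ± 0.38 (SE). For all 4 probes each reprogrammed lung array lay above each adult mammary array, as did 15.9% of the tested probes. The fit called 3.48% of all tested probes higher and 4.33% in either direction, and again nothing is read from these shares for probes that the comparison chose. Across the tested probes the median difference was 0.01 for reprogrammed mammary and 0.00 for reprogrammed lung against adult mammary. For the 4 members, which the rule took from the top of these lists, the medians were 2.55 and 2.12. The 2 comparisons share the adult mammary arrays.

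UCSF034_000782 was detected on all 12 arrays. In adult mammary cells its log2 signal was 7.55, 8.00 and 8.36 in replicates 1, 2 and 4, and in reprogrammed mammary cells it was 10.75, 10.48 and 12.50 in replicates 1, 2 and 4. In adult lung cells it was 9.13, 8.12 and 8.13, and in reprogrammed lung cells 8.63, 9.70 and 11.47, for replicates 1, 2 and 3. Reprogrammed mammary was thus highest on average (11.24 ± 1.10, SD, n = 3), followed by reprogrammed lung (9.93 ± 1.43), adult lung (8.46 ± 0.58) and adult mammary (7.97 ± 0.40). Each neighbouring pair in this order overlapped. The spread within the reprogrammed groups was wide: the SD was above that of 95.5% of tested probes for reprogrammed lung and 96.2% for reprogrammed mammary cells. The highest array of each reprogrammed group was the one on slide 1. Before scaling, the median processed signal over spots was 171, 267 and 334 in adult mammary and 1022, 845 and 3709 in reprogrammed mammary cells, so the groups were apart in the unscaled signal too.

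UCSF034_002172 followed UCSF034_000782 almost array for array. Its log2 signal was 6.44, 7.02 and 7.43 in adult mammary and 9.52, 9.25 and 11.20 in reprogrammed mammary cells (replicates 1, 2 and 4). In adult lung cells it was 8.43, 7.17 and 7.53, and in reprogrammed lung cells 8.07, 8.78 and 10.06 (replicates 1, 2 and 3). The group means had the same order as for UCSF034_000782, with 9.99 ± 1.06 for reprogrammed mammary, 8.97 ± 1.01 for reprogrammed lung, 7.71 ± 0.65 for adult lung and 6.96 ± 0.49 for adult mammary cells (SD, n = 3), and again all neighbours in the order overlapped. Before scaling, its median processed signal was 76.7, 134 and 180 in adult mammary and 431, 360 and 1312 in reprogrammed mammary cells, again without overlap. The correlation between both probes was 0.99 over the 12 arrays and 0.98 after group means were removed. These arrays share slides and a scaling factor each, and the values are a description.

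UCSF034_002175 was higher on every reprogrammed lung array than on any reprogrammed mammary array, the one of the 4 probes with no overlap between these groups. It was chosen for its level in reprogrammed lung cells, and 9.61% of all tested probes showed the same separation. In adult lung cells it was not well above background on any of 3 arrays, and its value sat at the floor of 3.41 on all of them. On adult lung replicate 1, 2 of its 6 spots were well above background, less than the share required of an array. Its processed signal in adult lung cells had medians of 8.92, 4.03 and 6.10 in replicates 1, 2 and 3. The local background around its spots was 18.8 to 20.5 there. Background is already subtracted from the processed signal, so the 2 quantities are not to be set against each other. In adult mammary cells it was 5.18, 4.51 and 4.31, and in reprogrammed mammary cells 4.96, 5.99 and 5.91 (replicates 1, 2 and 4). In reprogrammed lung cells it was 6.14, 7.99 and 7.05 for replicates 1, 2 and 3. Reprogrammed lung (7.06 ± 0.93, SD, n = 3) did not overlap reprogrammed mammary (5.62 ± 0.57), and adult mammary (4.66 ± 0.46) lay above adult lung on every array, but reprogrammed mammary and adult mammary overlapped. No test of the gap of 1.44 between the reprogrammed groups is given. Adult mammary lay above adult lung without overlap in 26.5% of all tested probes. Before scaling, the median processed signal was 80.8, 217 and 149 in reprogrammed lung, 18.4, 37.7 and 32.9 in reprogrammed mammary and 37.0, 24.5 and 19.0 in adult mammary cells. The last 2 groups covered the same range there, and with no scaling their difference shrank from 0.96 to 0.20.

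UCSF034_001735 was well above background on all 12 arrays and had the most even spots, with an SD between spots of at most 0.07 on any array. Its log2 signal was 10.73, 10.72 and 10.65 in reprogrammed lung cells (replicates 1, 2 and 3), an SD of 0.043 that was at or above that of 7.07% of tested probes. In reprogrammed mammary cells it was 9.76, 10.29 and 11.52 and in adult mammary cells 8.00, 8.49 and 8.90 (replicates 1, 2 and 4). In adult lung cells it was 10.16, 9.31 and 9.35. Reprogrammed lung (10.70) and reprogrammed mammary (10.53 ± 0.90, SD, n = 3) overlapped, as did reprogrammed mammary and adult lung (9.60 ± 0.48), while adult mammary (8.46 ± 0.45) lay below adult lung on every array, as in 18.4% of all tested probes. Before scaling, the median processed signal was 235, 375 and 468 in adult mammary cells, against 1962, 1471 and 1810 in reprogrammed lung cells, so this pair of groups was apart without any scaling.

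For 3 of the probes the difference was highest on slide 1. Each slide held 1 adult mammary, 1 reprogrammed mammary and 1 reprogrammed lung array, so differences could be taken within a slide. For UCSF034_000782 reprogrammed mammary exceeded adult mammary by 4.95 on slide 1, 2.12 on slide 2 and 2.75 on slide 3. UCSF034_002172 gave 4.76, 1.82 and 2.50 on the same slides, and UCSF034_001735 gave 3.53, 1.40 and 1.27. On slide 1 both ends of these differences were extreme, since adult mammary replicate 1 was the lowest and reprogrammed mammary replicate 4 the highest array of its group for all 3 probes. Without reprogrammed mammary replicate 4 the differences were 2.64 for UCSF034_000782, 2.42 for UCSF034_002172 and 1.57 for UCSF034_001735. Whether the poorer spot quality of that array takes part in its high values was not tested.

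UCSF034_002175 had another slide pattern. Reprogrammed lung exceeded adult mammary by 1.87, 3.69 and 1.64 on slides 1, 2 and 3, with slide 2 the highest. For UCSF034_001735 these differences were 2.66, 1.83 and 2.24, the most even of the 4 probes in this comparison. UCSF034_000782 gave 3.91, 1.34 and 0.63, and UCSF034_002172 gave 3.61, 1.36 and 1.05. Without reprogrammed lung replicate 3, the slide 1 array, the latter pair differed by 1.20 and 1.46. Without that array UCSF034_002175 and UCSF034_001735 differed by 2.40 and 2.27, and they ranked 7th and 8th of the 947 probes. Every within-slide difference of the 4 probes over adult mammary was above 0, a direction that the choice of probes favours. A fixed or random block for slide left all these mean differences as they were, because the groups are balanced over slides. Testing all 2579 probes, or fitting only the 2 groups compared, cannot change them either. Replicate number as a block cannot change those of reprogrammed mammary over adult mammary, whose arrays carry the same numbers. Such settings add nothing to a count of alternatives in which the probes, chosen on these values, kept their difference.

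The spots of a probe repeat the measurement within an array. For UCSF034_000782 the median SD between spots was 0.11 and for UCSF034_002172 it was 0.10, with the highest values of 0.41 and 0.40 both on reprogrammed mammary replicate 4. These medians are below the SD between arrays in every group. On that array the spots of UCSF034_000782 ran from 11.88 to 12.82 and those of UCSF034_002172 from 10.69 to 11.78. Even the lowest of these spots lay above every spot of reprogrammed mammary replicates 1 and 2, whose highest values were 10.80 for UCSF034_000782 and 9.63 for UCSF034_002172. For UCSF034_001735 all spots of reprogrammed mammary replicate 4 lay between 11.48 and 11.56, against at most 10.32 on the other 2 arrays of that group.

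Comparisons with adult lung did not take part in the choice of the probes. A test is given for each probe in the comparison whose groups share no array with the one that chose it. This is reprogrammed lung against adult lung for UCSF034_000782 and UCSF034_002172. For UCSF034_002175 and UCSF034_001735 it is reprogrammed mammary against adult lung. The SE and p-values still depend on the choosing arrays, since the fit pools its spread over all groups. With only the 2 groups compared, the tested differences and their calls stayed the same. The SE was then 0.78 for UCSF034_000782 and 0.61 for UCSF034_002172 (limma, adjusted p = 0.205 and 0.171). For UCSF034_002175 and UCSF034_001735 it was 0.30 and 0.52 (limma, adjusted p = 0.00403 and 0.202). Of all 947 probes, 20.2% were higher in reprogrammed lung than in adult lung cells and 35.1% differed in either direction (limma, adjusted p under 0.05). Neither UCSF034_000782 nor UCSF034_002172 passed in that comparison, and neither had an unadjusted p under 0.05. UCSF034_000782 differed by 1.47 ± 0.73 (SE; limma, adjusted p = 0.143, unadjusted p = 0.0729) and UCSF034_002172 by 1.26 ± 0.63 (SE; limma, adjusted p = 0.148, unadjusted p = 0.0758). For both, reprogrammed lung replicates 2 and 3 lay above all adult lung arrays, while replicate 1 lay below adult lung replicate 1. Single arrays moved these values. Without reprogrammed lung replicate 1 the difference of UCSF034_000782 was 2.12 and passed the threshold (limma, adjusted p = 0.0440), and without replicate 3 it was 0.70 (limma, adjusted p = 0.427). For UCSF034_002172 these were 1.71 and 0.71 (limma, adjusted p = 0.0728 and 0.411). Over all alternatives the adjusted p of limma ran from 0.0440 to 0.483 for UCSF034_000782 and from 0.0715 to 0.539 for UCSF034_002172. Within slides 1 and 2 UCSF034_000782 differed by 2.84 and 1.57, and UCSF034_002172 by 2.25 and 1.25. Slide 3 held no adult lung array. With slide as a fixed block the differences were 1.90 and 1.58 (limma, adjusted p = 0.0623 and 0.0902).

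UCSF034_002175 was higher in reprogrammed mammary than in adult lung cells. The difference was 2.22 ± 0.45 (SE; limma, adjusted p = 0.00420). Adult mammary also lay above adult lung for this probe, and reprogrammed mammary overlapped adult mammary. This comparison therefore does not show a rise over adult mammary cells. Of all tested probes, 24.9% were called higher in this comparison and 43.7% in either direction. Each of 3 reprogrammed mammary arrays lay above the adult lung arrays, as in 34.8% of all tested probes. With every adult lung value at the floor, any array above the floor is separate from them. The adult lung SD of 0 also enters the spread of the fit, so the SE and p-value depend on the floor. Because adult lung cells had no signal well above background, the fold is a bound: the level was at least 4.65-fold higher in reprogrammed mammary cells, taking the brighter group's mean against the common floor of 3.41, where all 3 adult lung arrays lay. By the same reckoning it was at least 12.6-fold higher in reprogrammed lung and at least 2.39-fold higher in adult mammary than in adult lung cells, both given without a test since they use arrays of the choice. These bounds hold on this scale and floor: the log2 difference between reprogrammed and adult lung, 3.66, was 2.29 after normexp and 2.13 in the authors' table. Within slides 1 and 2 the difference between reprogrammed mammary and adult lung was 2.51 and 2.59 and with slide as a fixed block it was 2.50 (limma, adjusted p = 0.00266). The threshold was passed under all alternatives tried, with adjusted p of limma from 8.91e-05 to 0.0252. The size ran from 1.15 in the authors' value table, and 1.41 with no scaling, to 2.55 without reprogrammed mammary replicate 1.

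UCSF034_001735 differed by 0.92 ± 0.42 between reprogrammed mammary and adult lung cells (SE; limma, adjusted p = 0.107, unadjusted p = 0.0565) and did not pass. Its reprogrammed mammary replicates 2 and 4 lay above all adult lung arrays, while replicate 1 lay below adult lung replicate 1. Within slides 1 and 2 the difference was 1.79 and 0.94, and a fixed block for slide gave 1.07 (limma, adjusted p = 0.104). It passed without reprogrammed mammary replicate 1 (1.30; limma, adjusted p = 0.0343) and after normexp background correction (0.88; limma, adjusted p = 0.0482), and it was 0.42 without replicate 4 (limma, adjusted p = 0.355). With no scaling it turned to -0.65 (limma, adjusted p = 0.201), as the median processed signal before scaling was 1813, 987 and 1330 in adult lung and 515, 739 and 1614 in reprogrammed mammary cells.

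The other differences from adult lung use arrays of the choice and are given as values. UCSF034_000782 and UCSF034_002172 were higher in reprogrammed mammary than in adult lung cells by 2.78 ± 0.73 and 2.28 ± 0.63 (SE), and UCSF034_002175 and UCSF034_001735 were higher in reprogrammed lung than in adult lung by 3.66 ± 0.45 and 1.10 ± 0.42 (SE), with no overlap of groups in these 4 cases. With no scaling UCSF034_000782 and UCSF034_002172 differed by 1.21 and 0.71 in the first of these comparisons, and UCSF034_001735 by 0.38 in the second. Such a separation was seen in 34.8% of tested probes for reprogrammed mammary and 29.6% for reprogrammed lung over adult lung. Between the adult tissues UCSF034_002175 was higher in mammary cells by 1.26 ± 0.45 (SE), a value set by the floor, while UCSF034_000782, UCSF034_002172 and UCSF034_001735 were lower in mammary cells, with differences of -0.49 ± 0.73, -0.75 ± 0.63 and -1.14 ± 0.42 (SE, adult mammary minus adult lung). By its mean, adult mammary was therefore the lowest group for 3 of the probes and adult lung for the other. The choice of probes by their rise over adult mammary favours a low level there. For UCSF034_000782 and UCSF034_002172 the adult groups overlapped. Within slides 1 and 2 adult mammary minus adult lung was -1.08 and 0.23 for UCSF034_000782, and -1.36 and -0.10 for UCSF034_002172.

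The share of higher calls in these backgrounds moved with the scaling. In reprogrammed lung against adult lung 191 probes were higher and 141 lower, against 89 and 223 with a percentile that includes every probe, 119 and 170 after quantile normalization, 53 and 305 with no scaling, 489 and 107 after normexp and 100 and 150 in the authors' table. In reprogrammed mammary against adult lung 236 were higher and 178 lower, against 163 and 228, 167 and 207, 14 and 531, 620 and 92, and 131 and 168 in the same order. The median over all tested probes moved with them, from 0.14 to -0.39 with no scaling and 0.51 after normexp in the first comparison and from 0.17 to -1.00 and 0.96 in the second. UCSF034_000782, UCSF034_002172 and UCSF034_002175 kept a difference above 0 over adult lung in both comparisons under each of these scalings. The choice favours this direction in the comparison that holds the reprogrammed group a probe was chosen for. UCSF034_001735 turned to -0.65 with no scaling in reprogrammed mammary against adult lung.

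The 4 probes fell into different patterns over the 12 arrays. The correlation of UCSF034_001735 with UCSF034_000782 was 0.79 and with UCSF034_002172 it was 0.86, and after group means were removed these were 0.60 and 0.72. UCSF034_002175 correlated with the other 3 probes at 0.51 to 0.56, and at 0.11 to 0.22 after group means were removed. Of 942 other probes with any variation, 31 had a correlation above 0.9 with UCSF034_000782, 36 with UCSF034_002172, 25 with UCSF034_001735 and 6 with UCSF034_002175. All these values come from the same 12 arrays, with shared slides and scaling.

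The probe most like both UCSF034_000782 and UCSF034_002172 was UCSF034_002481 (r = 0.99 with each, 12 arrays), with group means of 11.29 for reprogrammed mammary, 10.36 for reprogrammed lung, 9.39 for adult lung and 8.89 for adult mammary cells. UCSF034_002479 followed for the former (r = 0.99) and UCSF034_002393 for the latter (r = 0.99), and each member came next in the order of the other. All of these shared the order of groups, with the top value on reprogrammed mammary replicate 4. UCSF034_001735 was most like UCSF034_002336, UCSF034_002497 and UCSF034_002169 (r = 0.98 for each). UCSF034_002336 had means of 7.77, 7.57, 6.52 and 5.57 in the same order.

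UCSF034_002175 was most like UCSF034_002223 (r = 0.98), whose means were 5.76 for reprogrammed lung, 4.68 for reprogrammed mammary, 4.15 for adult mammary and 3.53 for adult lung cells. UCSF034_000383 and UCSF034_000863 came next (r = 0.94 and 0.93). Both sat at the floor of 3.41 in adult lung cells and were highest in reprogrammed lung cells, at 4.32 and 5.17. These 3 probes thus shared with UCSF034_002175 a level at or near the floor in adult lung cells, where values have no order, and a peak on reprogrammed lung replicate 2.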

How the data were processed

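Agilent arrays of 1 colour (Cy3) were read with Agilent Feature Extraction, version 10.5.1.1 per the file headers that give one and 10.1 per the submitters' processing notes. The deposited processed signal is a background-subtracted intensity on a linear scale; spot flags are other values of 0 or 1 in the deposited files. The authors' value table holds log2 values for 2270 probes; its scale is log2 and its direction that of the arrays (r of at least 0.996 with the log2 spot signal of its own array, column medians from 4.97 to 5.00), while its centring stays unknown and the sources used here do not say how it was made. It served as an alternative, with 0 columns of other samples.

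Control spots (536) and outlier spots were left out (where all spots of a probe were outliers, in 1 case, they were kept). Signal was scaled by its 75th percentile among the 631 probes detected (well above background) on each of the 12 arrays, floored at 10.6 and averaged over spots as log2. The 947 probes well above background, by more than a share of 0.5 of their spots, on at least 3 arrays were fitted with limma 3.58.1 (R 4.3.3; 4 group means, no block, 8 residual degrees of freedom) and Benjamini-Hochberg adjustment. The threshold was an adjusted p under 0.05. All 4 members were among the 947. The fit was tested on simulated data. The files hold gMedianSignal in place of the planned mean signal, so normexp used that. The members, groups of comparisons and alternatives were chosen with earlier results of these data known. By the rule for named probes, the 4 members, the 3 probes most correlated with each and the 2 next in each order of the choice are named. No miRNA list could be used, since 0 probes could be named. The number of arrays limits the precision. Random blocks used statmod 1.5.0.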

Additional observations from a re-analysis of the deposited data

How the results depend on the processing

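The differences of the 4 probes over adult mammary stayed above 0 in all 17 alternatives: from 2.51 to 3.66 for UCSF034_000782 and 2.27 to 3.40 for UCSF034_002172 in reprogrammed mammary, and from 1.17 to 2.86 for UCSF034_002175 and 2.01 to 2.68 for UCSF034_001735 in reprogrammed lung cells. The first pair ranked first and second in all 17. UCSF034_002175 was among the first 2 of reprogrammed lung in 11 of 17 and UCSF034_001735 in 12. The former ranked 28th after normexp (difference 1.17) and 14th in the authors' table (1.43). Settings that cannot change these differences, named above, pad these counts. Leaving out 1 array gave 0.70 to 2.12 for UCSF034_000782 and 0.71 to 1.71 for UCSF034_002172 (reprogrammed lung minus adult lung), and 2.03 to 2.55 for UCSF034_002175 and 0.42 to 1.30 for UCSF034_001735 (reprogrammed mammary minus adult lung). The last turned to -0.65 with no scaling and passed the threshold at 0.88 after normexp; the cause was not tested.

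Counts of probes that differed (limma) were 85 for reprogrammed mammary and 41 for reprogrammed lung against adult mammary, and 332 for reprogrammed lung and 414 for reprogrammed mammary against adult lung. In this order of comparisons, normexp gave 474, 16, 596 and 712, and testing all 2579 probes gave 35, 2, 185 and 263. No scaling gave 278 and 69 for the first 2 comparisons and quantile normalization 52 and 19. The authors' table gave 36 for the first. Slide as a fixed block gave 24 for the second. With only the 2 groups compared, the first gave 0 (220 at an unadjusted p under 0.05) and the second 25. Leaving out 1 array gave 26 to 73, 0 to 82, 204 to 347 and 261 to 375. The second was 0 without adult mammary replicate 1, adult mammary replicate 2 or reprogrammed lung replicate 2 (166, 168 and 177 at an unadjusted p under 0.05) and 82 without reprogrammed lung replicate 1. The first was 26, 30 and 31 without adult mammary replicate 1, adult mammary replicate 2 and reprogrammed mammary replicate 4. Against adult lung, leaving out adult lung replicate 2 gave 204 and 261 and adult lung replicate 3 gave 220 and 272. The split of the first was 64 higher and 21 lower, and 21 and 257 with no scaling, 457 and 17 after normexp and 52 and 32 with total gene signal, an alternative chosen after seeing the data; that of the second was 33 and 8, and 11 and 5 after normexp, 29 and 14 in the authors' table and 31 and 25 with total gene signal.

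Replicate number as a block gave 56, 42, 296 and 289 probes and changed no call of the 4 tested values (UCSF034_001735 gave 0.49, limma, adjusted p = 0.334). Whether the numbers pair the samples is not settled by the labels. Deviations of same-numbered arrays from their group means correlated from -0.45 to 0.27 over all pairs of groups. Arrays with different numbers gave -0.65 to 0.63. Deviations from means of so few arrays cannot exclude a shared animal or preparation, so no conclusion is drawn. Of 6 arrays each, 2 in the lung and 2 in the mammary groups deviated most like the array of their own number.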
